A study of Mus musculus with 18 samples.

Results

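The imprinted anti-Rtl1 miRNAs are mature miRNAs of the hairpins miR-127, miR-136, miR-431, miR-433, miR-434 and miR-540, which lie on mouse chromosome 12. They were taken by name from a list (mmu-miR-127-3p, mmu-miR-127-5p, mmu-miR-136-5p, mmu-miR-136-3p, mmu-miR-431-5p, mmu-miR-431-3p, mmu-miR-433-3p, mmu-miR-434-3p, mmu-miR-434-5p and mmu-miR-540-3p): 10 mature miRNAs of 6 hairpins, out of 1431 mature miRNAs in the tables. The list holds both arms of miR-127, miR-136, miR-431 and miR-434, and 1 arm each of miR-433 and miR-540. Small RNA had been sequenced from eyes, lungs and testicles of male mice of the inbred strain C57BL/6, aged 8 to 12 weeks, with no other genotype or treatment named. The 18 libraries form 6 groups of 3: left eye, right eye, left lung, right lung, left testicle and right testicle. Whether a left and a right organ came from 1 mouse, and whether animals were pooled, is not stated in the labels, so p-values measure only the spread between these samples, and 6 libraries of an organ may hold fewer than 6 animals.

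Rtl1, also called Peg11, is a gene derived from a retrotransposon and lies in the imprinted Dlk1-Dio3 domain, where some genes are expressed from 1 parental chromosome only. Rtl1 is transcribed from the paternal copy. The maternal copy gives a transcript of the opposite strand, from which these miRNAs are cut. Because they are antisense to the Rtl1 messenger RNA, they pair with it along their whole length and direct its cleavage. In mice the pair of genes is best known from the placenta, where both Rtl1 and the antisense transcript are needed for normal growth of the fetal capillaries. Many miRNAs of the domain are also known as abundant in brain and other neural tissue.

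The mature sequences of the 7 members with the highest counts are shown because the organ differences described here rest on them. They are taken from RefSeq (GRCm38.p6), run 5′ to 3′, and carry the seed, bases 2 to 8, in capitals.
miR-127-3p: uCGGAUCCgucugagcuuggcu
miR-434-3p: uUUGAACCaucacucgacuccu
miR-434-5p: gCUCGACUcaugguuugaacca
miR-433-3p: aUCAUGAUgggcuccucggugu
miR-136-5p: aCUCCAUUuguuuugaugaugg
miR-431-5p: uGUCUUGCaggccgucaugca
miR-540-3p: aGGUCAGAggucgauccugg

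All 10 members matched an entry of the RefSeq table, and they carry 10 different seeds. Only the seed of miR-540-3p was found in another listed miRNA, miR-6915-5p. The members therefore share a place in the genome and not a seed. All lie on the + strand of chromosome 12, with miR-431-5p at chr12:109590459-109590479, miR-433-3p at chr12:109591781-109591802 and miR-127-3p at chr12:109592888-109592909. Further along are miR-434-5p at chr12:109594528-109594549, miR-434-3p at chr12:109594565-109594586 and miR-136-5p at chr12:109595331-109595352. The hairpins from miR-431 to miR-136 span 4942 bases and lie inside the coding sequence of Rtl1, which the GENCODE M21 annotation places on the - strand at chr12:109590172-109595403.

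The Rtl1 transcript in GENCODE M21 held a full-length complementary site for 9 of the 10 members. These sites are shown for the 3 members with the highest counts in the eye, 5′ to 3′ along the transcript, with the bases that pair with the seed in capitals.
Rtl1 site of miR-127-3p: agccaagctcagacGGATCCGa
Rtl1 site of miR-434-3p: aggagtcgagtgatGGTTCAAa
Rtl1 site of miR-433-3p: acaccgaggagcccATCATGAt
No other annotated gene held the full site of these 3 members. For the arms of miR-136, 1 other gene did, the miR-3071 hairpin, which lies on the opposite strand over miR-136.

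MiR-540 differs from the rest by position. Its mature 3p arm lies at chr12:109586122-109586141, and its hairpin is 4300 bases from the miR-431 hairpin and 3046 bases beyond the end of Rtl1 in GENCODE M21. No complementary site for miR-540-3p was found in that Rtl1 transcript. RefSeq annotates a longer Rtl1, at chr12:109564900-109604418, which covers miR-540. The label of an anti-Rtl1 miRNA thus holds by sequence for 9 members, and for miR-540-3p only by the longer annotation.

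Values are counts per mature miRNA, and CPM is counts per 1e6 after scaling by the trimmed mean of M values (TMM). Library totals were 2451484 to 2680204 counts in eyes, 2538402 to 2790471 in lungs and 952608 to 1893132 in testicles. A count of 0 in a library allows up to 3 counts, equal to 1.12 to 1.22 CPM for eyes, 1.08 to 1.18 CPM for lungs and 1.58 to 3.15 CPM for testicles. Such limits cover counting error only. The organ labels were read against marker miRNAs. The 8 eye markers summed to 239830 to 319190 CPM in eyes, 2601 to 6611 CPM in lungs and 17720 to 39276 CPM in testicles. The 7 testicle markers summed to 167 to 253 CPM in eyes, 2118 to 3604 CPM in lungs and 84526 to 127960 CPM in testicles, with miR-547-5p at 0 in every eye and lung library. The 7 lung markers summed to 23151 to 32798 CPM in eyes, 91234 to 122350 CPM in lungs and 85259 to 127860 CPM in testicles. Their sum thus did not separate lung from testicle. Of these markers miR-449a-5p was higher in testicles (56853 to 97319 CPM) than in lungs (6366.5 to 15973 CPM). Each of the other lung markers had every lung library above every testicle library. Right lung 1 and left lung 2 had the most miR-127-3p and the most summed eye markers of the lungs. In the eye markers left lung 2 (4614 CPM) was close to right lung 2 (4249 CPM). Leaving out both together, as done below, was not planned beforehand.

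All 10 members had their highest mean level in the eye, and the leading member in every organ was miR-127-3p. Mice that lack this miRNA are known to have an abnormal placental labyrinth. Its lowest, median and highest levels were 5706, 8464 and 10971 CPM in the 6 eyes, 668, 868 and 3026 CPM in the 6 lungs, and 1450.5, 2324 and 2909.9 CPM in the 6 testicles. Every eye lay above every lung and every testicle, while the lungs overlapped the testicles. By mean level miR-127-3p ranked 32 of 1431 miRNAs in eyes, 76 in lungs and 72 in testicles. Together the 10 members took 1.18% ± 0.169 of the counts in eyes, 0.166% ± 0.0977 in lungs and 0.224% ± 0.0378 in testicles (SD, n = 6 each).

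MiR-434-3p was the member next in abundance, and its organs lay farther apart. The lowest, median and highest levels were 1501, 2146 and 2403 CPM in eyes, 43.9, 51.1 and 116 CPM in lungs, and 115, 194 and 310.2 CPM in testicles. No eye library overlapped either other organ, while the highest lung was just above the lowest testicle. MiR-433-3p, which came next in eyes, had 439.85, 455 and 647 CPM there, 5.79, 13.7 and 17.7 CPM in lungs, and 11.8, 23.8 and 31.1 CPM in testicles. Its lowest eye library was above every lung and testicle, and the lungs and testicles overlapped.

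The remaining members kept the eye first at lower levels. The 5p arm of miR-434 had 185, 217 and 263 CPM as lowest, median and highest level in eyes, 20.1, 24.9 and 70.9 CPM in lungs, and 77.2, 113 and 140.3 CPM in testicles. MiR-136-5p had 142, 204 and 298 CPM in eyes, 7.20, 22.6 and 32.7 CPM in lungs, and 49.4, 59.3 and 79.1 CPM in testicles. For both, the 3 organs did not overlap in TMM-scaled CPM, with the eye highest and the lung lowest. MiR-431-5p, which in mice is known from the regulation of muscle stem cells through Pax7, had 133, 144 and 193 CPM in eyes, 14.3, 21.8 and 39.7 CPM in lungs, and 23.6, 30.3 and 36.3 CPM in testicles. Its lungs and testicles overlapped, so their order was not resolved by the libraries.

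The 4 members with the fewest counts were read mainly in the eye. MiR-540-3p had 35 to 69 counts in an eye library, 0 to 14 in a lung and 1 to 8 in a testicle. MiR-136-3p had 22 to 38 counts in an eye, 0 to 4 in a lung and 0 to 5 in a testicle. Both had every eye library above every lung and testicle in CPM. MiR-431-3p had 44 counts over the 6 eyes, 1 over the 6 lungs and 0 over the 6 testicles, and was at least 8.51-fold higher in the eye than in the testicle, taking 3 counts over the 6 testicles as the limit. Its ratio of eye to lung was 46.1 with an exact 95% counting interval of 7.85 to 1861.4. MiR-127-5p had 23 counts over the eyes, 1 over the lungs and 2 over the testicles. The ratio of eye to lung was 24.1 (counting interval 3.91 to 992) for miR-127-5p and that of eye to testicle was 6.67 (1.65 to 58.4). These intervals treat reads as independent molecules and leave out the spread between libraries.

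**Figure D1:**
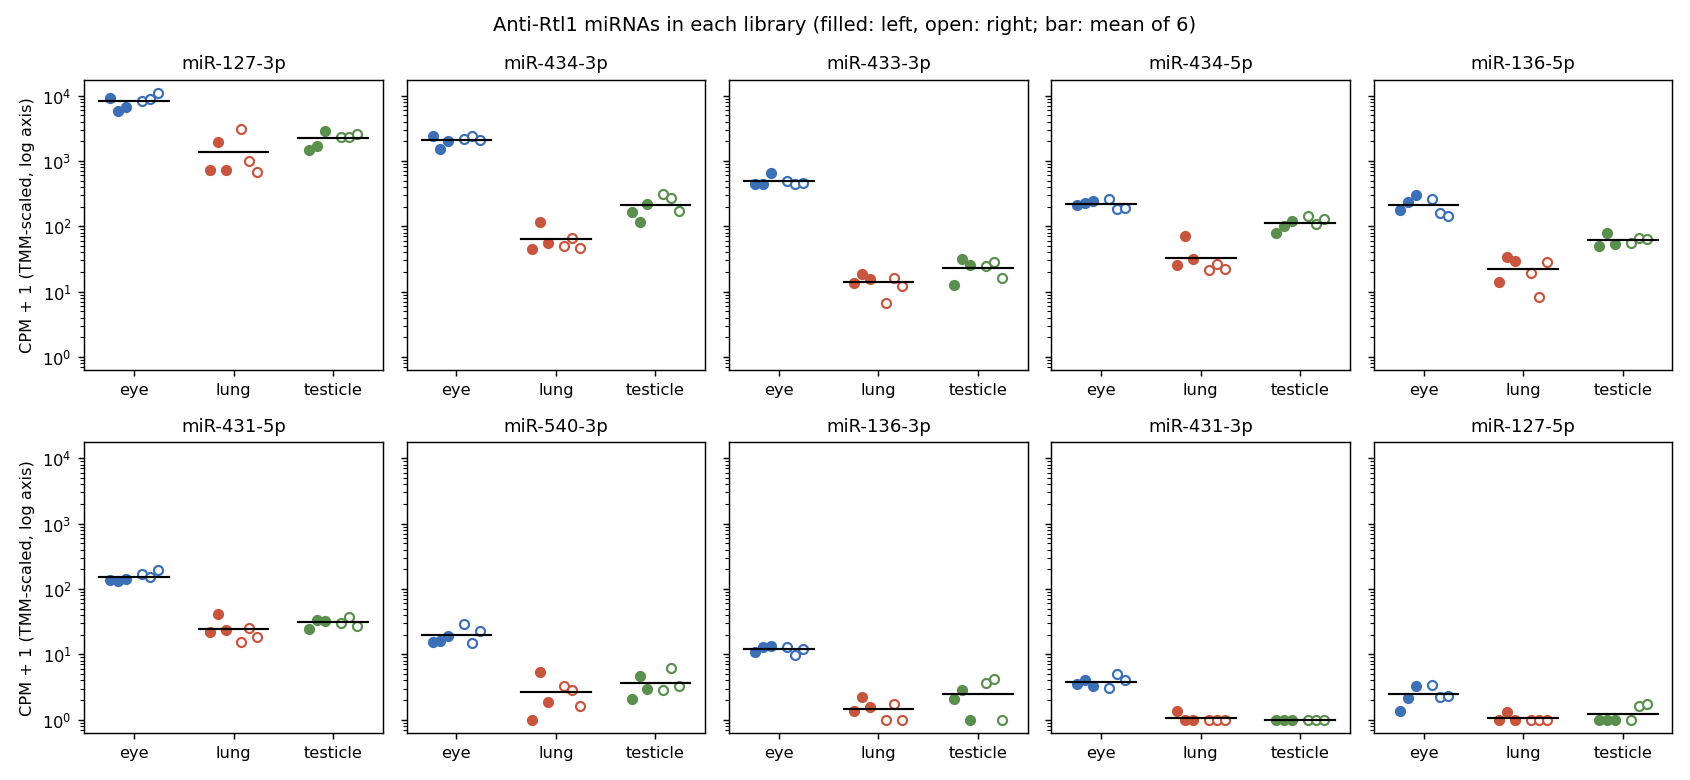
Level of each of the 10 members in every library, as TMM-scaled CPM + 1 on a log axis, with left organs filled, right organs open and a bar at the mean of the 6 libraries of an organ. For miR-127-3p the eyes run from 5706 to 10971 CPM, above all lungs (668 to 3026 CPM) and all testicles (1450.5 to 2909.9 CPM).

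Eyes were compared with lungs to find the miRNAs that set these organs apart. Of the 10 members, 8 passed the filter on low counts over the 18 libraries. Among these, miR-127-3p, miR-136-5p, miR-431-5p, miR-433-3p, miR-434-3p and miR-434-5p also passed it within each organ, whereas miR-136-3p and miR-540-3p passed within the eye alone, so that these 2 had to be higher there to be tested. The rest, miR-127-5p and miR-431-3p, did not pass and have only the counts above. In edgeR's quasi-likelihood test over 642 miRNAs, with an adjusted p under 0.05 as the threshold, 6 of the 6 members that passed within each organ were called higher in the eye than in the lung, where 35.4% of all tested miRNAs were, and 30.9% of the 340 miRNAs that passed within each organ. Every eye library lay above every lung library for 6 of 6, where that held for 28.5% of those 340 miRNAs.

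Within the family the size of the eye to lung difference ranged widely. With all libraries in, the largest was that of miR-433-3p, which averaged 489 ± 79.3 CPM in the eye and 12.8 ± 4.13 CPM in the lung (SD, n = 6 each). Its log2 fold change was 5.26 (SE 0.30, adjusted p 1.5e-10 by edgeR), or 38.4-fold. MiR-434-3p followed with a log2 fold change of 5.09 (SE 0.30, adjusted p 2.1e-10 by edgeR), or 34.0-fold. These values stood well above the 2.61 of miR-127-3p (SE 0.36, adjusted p 5.9e-06 by edgeR), or 6.11-fold. MiR-431-5p was close to miR-127-3p at 2.74 (SE 0.21), as was miR-434-5p at 2.84 (SE 0.25). MiR-136-5p lay between at 3.33 (SE 0.33), with 211 ± 62.3 CPM in the eye and 21.1 ± 9.90 CPM in the lung. Among the members tested through the eye alone, miR-540-3p had 3.43 (SE 0.46) and miR-136-3p 4.54 (SE 0.49), and both were called. The median over the 6 members that passed within each organ was 3.08, beside -0.07 over the 340 miRNAs that did. The order of the leading pair depended on the libraries, since without left lung 2 miR-434-3p had 5.15 and miR-433-3p 5.12. Without right eye 2 miR-433-3p had 4.57 and miR-434-3p 4.36, and the median of all tested miRNAs moved from 0.005 to -0.54. MiR-540-3p had 4.11 without left lung 2.

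In the eye against the testicle the order of the members changed. The 6 members that passed within each organ were again all called higher in the eye by edgeR, where 40.2% of all tested miRNAs were, and 39.7% of the 340 that passed within each organ. Every eye library lay above every testicle library for 6 of 6, where 31.5% of those 340 miRNAs did so. MiR-433-3p again had the largest log2 fold change, 4.45 (SE 0.29, adjusted p 4.7e-10 by edgeR), with 489 ± 79.3 CPM in the eye and 22.2 ± 7.34 CPM in the testicle. MiR-434-3p had 3.36 (SE 0.28, adjusted p 8.3e-09 by edgeR). At the other end was the opposite arm of the same hairpin: miR-434-5p averaged 218 ± 30.0 CPM in the eye and 113 ± 22.7 CPM in the testicle, a log2 fold change of 0.96 (SE 0.24, adjusted p 0.00135 by edgeR). Between these were miR-136-5p at 1.79 (SE 0.31), miR-127-3p at 1.89 (SE 0.35) and miR-431-5p at 2.35 (SE 0.21). MiR-540-3p, at 2.69 (SE 0.49), and miR-136-3p, at 2.85 (SE 0.48), had been tested through the eye alone. The median over the 6 members that passed within each organ was 2.12, beside 0.05 over the 340 miRNAs that did. The 2 comparisons share the eye libraries and are not independent of each other.

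The lung and the testicle were less apart, and here the scaling of the libraries decided more of the calls. By edgeR 4 of the 6 members that passed within each organ were lower in the lung, where 49.1% of all tested miRNAs and 40.6% of those 340 were called lower. Every lung lay below every testicle for 2 of the 6, miR-136-5p and miR-434-5p, where that held for 33.5% of the 340. By library totals alone the miR-434-5p of left lung 2, at 85.2 CPM, was above that of the lowest testicle, at 75.6 CPM, while miR-136-5p kept 39.3 CPM in the highest lung and 39.9 CPM in the lowest testicle. MiR-434-5p had 32.1 ± 19.4 CPM in the lung and 113 ± 22.7 CPM in the testicle, a log2 fold change of -1.87 (SE 0.24, adjusted p 2.7e-06 by edgeR). MiR-434-3p had -1.73 (SE 0.26, adjusted p 1.4e-05 by edgeR), with 62.1 ± 27.6 CPM in the lung and 208 ± 72.5 CPM in the testicle. MiR-136-5p had -1.54 (SE 0.31, adjusted p 2.6e-04 by edgeR), with 21.1 ± 9.90 CPM in the lung and 60.6 ± 10.9 CPM in the testicle. These 3 members were called in each of the 28 alternatives to the processing. Without right eye 2 they had -1.27 (miR-434-5p), -1.12 (miR-434-3p) and -0.91 (miR-136-5p). Right eye 2 is no lung or testicle, so leaving it out acts here only through what the fit shares, such as the scaling. The median of all tested miRNAs moved too, from -0.90 with all libraries to -0.29. Relative to that median miR-434-5p stayed at -0.98. With all libraries in, the median was -0.31 with left lung 1 as the reference of the scaling and -0.37 with left testicle 1.

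The other calls between lung and testicle were not stable. MiR-433-3p had 12.8 ± 4.13 CPM in the lung and 22.2 ± 7.34 CPM in the testicle, a log2 fold change of -0.81 (SE 0.27, adjusted p 0.0105 by edgeR), which was lost in 6 of 28 alternatives, among them those without right lung 1 and left lung 2 (-0.25, adjusted p 0.37), without right eye 2 (-0.19) and without left testicle 2 (-0.63). MiR-136-3p had -1.69 (SE 0.73, adjusted p 0.045 by edgeR) and was called in 6 of 27 alternatives, where leaving out single libraries gave -2.91 to -1.11. MiR-127-3p, with -0.72 (SE 0.34, adjusted p 0.064 by edgeR), did not pass. By edgeR it had -1.17 without right lung 1 (adjusted p 0.0014), -1.03 without left lung 2 and -1.02 without both of these lungs (adjusted p 5.7e-04). These lungs had the most miR-127-3p, so leaving them out lowers the lung mean, and those calls are no separate support. In all, miR-127-3p was called in 6 of 28 alternatives. With all libraries in, it passed with no filter (-0.71, adjusted p 0.0092) and with a mean of at least 10 CPM as the filter (-0.87, adjusted p 0.040). It also passed without surplus names of identical counts (-0.77, adjusted p 0.048, all by edgeR). MiR-431-5p had -0.39 (SE 0.21, adjusted p 0.090 by edgeR) and 0.18 with left lung 1 as the reference of the scaling, so its direction was not settled. It passed without left lung 2 (-0.56) or right lung 2 (-0.50), and with a mean of at least 10 CPM as the filter (-0.59). MiR-540-3p had -0.74 (SE 0.60, adjusted p 0.27 by edgeR), and passed at -1.61 without left lung 2. All tested miRNAs had a median of -0.90 in this comparison, which ran from -0.90 to -0.31 across the 5 scalings. Among the 340 miRNAs that passed within each organ the median was -0.12, beside -1.18 for the 6 members that did.

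**Figure D2:**
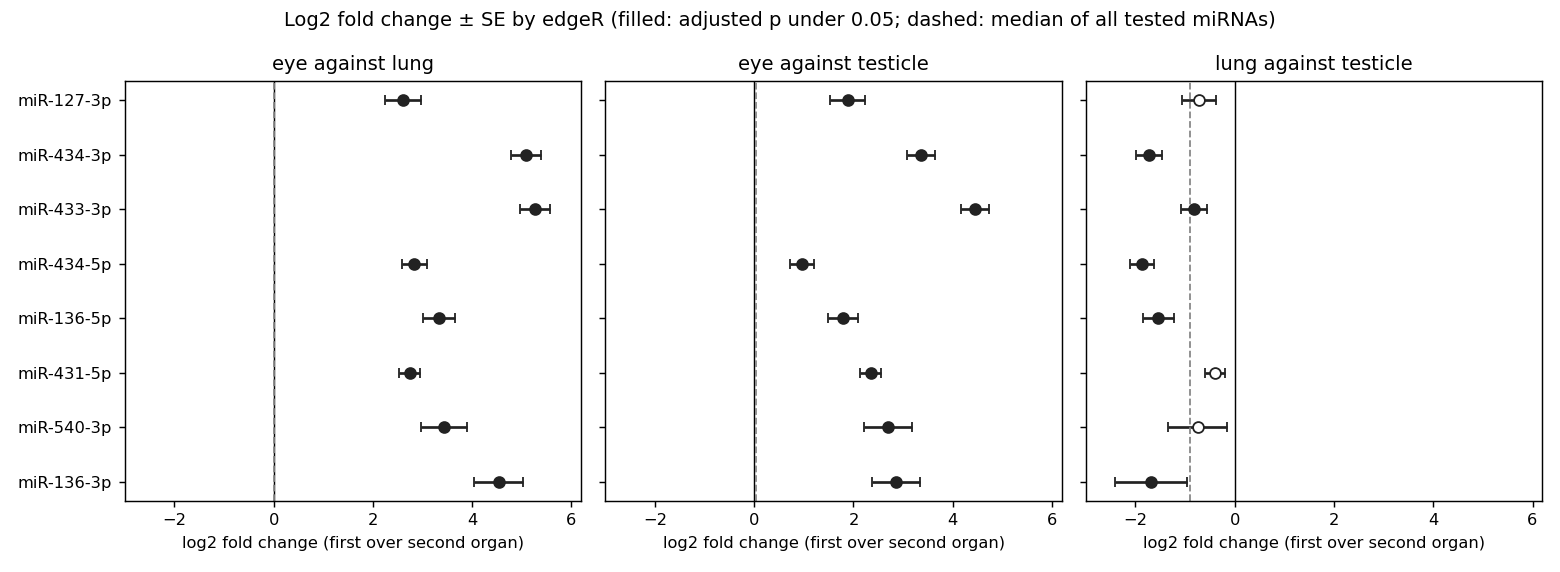
Log2 fold change of the 8 tested members, with the SE as bars, between each pair of organs (first over second). Filled points have an edgeR adjusted p under 0.05, and a dashed line marks the median of all tested miRNAs. MiR-433-3p and miR-434-3p are farthest to the right against the lung (5.26 and 5.09), and between lung and testicle the members lie on both sides of the dashed line at -0.90.

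The libraries are of whole organs, so fewer cells of a type and less RNA per cell cannot be told apart. The eye contains retinal neurons, and the striated muscle that moves it may be taken with it. The 4 neuronal marker miRNAs, all detected in every library, summed to 39336 to 69732 CPM in eyes, 17.1 to 165 CPM in lungs and 1889 to 2691 CPM in testicles. The 3 markers of striated muscle summed to 4489 to 10450.0 CPM in eyes, 44.3 to 513 CPM in lungs and 618 to 1056 CPM in testicles. Both lists follow the same order of organs as miR-127-3p and miR-434-3p, and their part in the differences was not tested.

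A ratio of 2 counts within a library does not depend on how libraries are scaled. The clearest such ratio was that of the 2 arms of miR-434. The 5p arm made up 8.05%, 12.9% and 10.7% of the hairpin's counts in left eyes and 10.8%, 7.16% and 8.19% in right eyes. It made up 36.0%, 37.9% and 36.3% in left lungs and 29.4%, 27.8% and 31.8% in right lungs. In testicles it was 31.7%, 47.0% and 35.9% on the left and 31.1%, 28.0% and 43.1% on the right. The eyes did not overlap either other organ, whereas lungs and testicles overlapped. Between sides, every left lung lay above every right lung, which was not tested, while left and right overlapped in eyes and in testicles.

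The log2 ratio of 5p to 3p of miR-434 averaged -3.26 ± 0.36 in eyes, -1.01 ± 0.27 in lungs and -0.83 ± 0.46 in testicles (SD, n = 6 each). The eye was lower than the lung by a log2 difference of -2.25 (SE 0.18), or 4.74 times, and lower than the testicle by -2.42 (SE 0.24), or 5.36 times. Each had a two-sided exact permutation p of 0.0022, the smallest that 6 against 6 libraries allow, and an adjusted p of 0.013 over 12 tests (4 hairpins, 3 pairs of organs). Lung and testicle differed by -0.18 (SE 0.22, exact permutation p 0.44). If libraries of the same number on the left and right came from 1 mouse, 3 against 3 averages could not reach the threshold. Averaging in that way leaves the differences of miR-434 unchanged by arithmetic, so their size tests nothing about pairing.

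The other 3 hairpins with both arms listed were nearly one-armed in all organs. MiR-127 counts were almost all of the 3p arm, with the 5p arm at 0.0189% ± 0.0115 of the hairpin's counts in eyes, 0.00263% ± 0.00644 in lungs and 0.00948% ± 0.0147 in testicles. MiR-136 and miR-431 were almost all of the 5p arm, which made up 94.8% ± 1.13 of miR-136 in eyes, 97.1% ± 3.36 in lungs and 97.7% ± 2.10 in testicles. For miR-431 the 5p arm was 98.2% ± 0.520 in eyes, 99.7% ± 0.692 in lungs and every count in testicles was of that arm. None of their 9 comparisons passed after adjustment (lowest adjusted p 0.12, two-sided exact permutation test). The minor arms had 0 counts in many lung and testicle libraries, so the ratios there rest on the added 0.5 counts. The unlisted arm of miR-433, miR-433-5p, had 90 counts over the eyes, 3 over the lungs and 7 over the testicles, and miR-540-5p had 13, 4 and 3 counts.

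The balance between hairpins differed between organs as well. MiR-127-3p made up 71.4% ± 3.88 of the members' counts in eyes, 87.5% ± 4.77 in lungs and 83.1% ± 2.64 in testicles. Relative to miR-127-3p in the same library, miR-434-3p had 26.1% ± 3.62 of its counts in eyes, 5.71% ± 2.08 in lungs and 9.58% ± 2.93 in testicles. The eye libraries lay at 19.4% to 30.3%, above all lungs (1.59% to 7.38%) and all testicles (6.71% to 13.4%). This ratio was higher in the eye than in the lung by 2.32 on the log2 scale (SE 0.35) and higher than in the testicle by 1.49 (SE 0.20). Both had an adjusted p of 0.0065 in two-sided exact permutation tests, adjusted over 15 comparisons of 5 members. These ratios were tested after the data had been seen.

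MiR-433-3p moved in the same way relative to miR-127-3p, at 6.30% ± 2.11 in eyes, 1.34% ± 0.669 in lungs and 1.05% ± 0.446 in testicles. The differences were 2.47 (SE 0.55) against the lung and 2.59 (SE 0.29) against the testicle, with no overlap of the eye with either organ (adjusted p 0.0065 each, exact permutation test). MiR-434-5p went another way, at 2.82% ± 0.887 in eyes, 2.93% ± 1.24 in lungs and 5.20% ± 0.786 in testicles. It was lower in the eye than in the testicle by -0.94 (SE 0.21, adjusted p 0.0065, exact permutation test) and lower in the lung than in the testicle by -1.01 (SE 0.41, adjusted p 0.011, exact permutation test). Without right lung 1 and left lung 2 the last difference was -0.66 (adjusted p 0.036).

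The ratios of miR-136-5p and miR-431-5p to miR-127-3p did not pass in any pair of organs with all libraries in. In the pairs with the lung, right lung 1 decided this for miR-431-5p, which had 0.472% of the counts of miR-127-3p there and 2.05% to 3.09% in the other 5 lungs. Without right lung 1 the difference of eye against lung was -0.46 (adjusted p 0.024) and that of lung against testicle 0.89 (adjusted p 0.011, exact permutation tests). For eye against testicle the difference of miR-431-5p was 0.44 (adjusted p 0.065), and it passed without left eye 1 (0.50, adjusted p 0.041) or without left testicle 2 (0.54, adjusted p 0.032, exact permutation tests). The ratio of miR-434-3p was lower in the lung than in the testicle by -0.84 (SE 0.39, adjusted p 0.023, exact permutation test), and -0.47 (adjusted p 0.065) without right lung 1 and left lung 2.

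**Figure D3:**
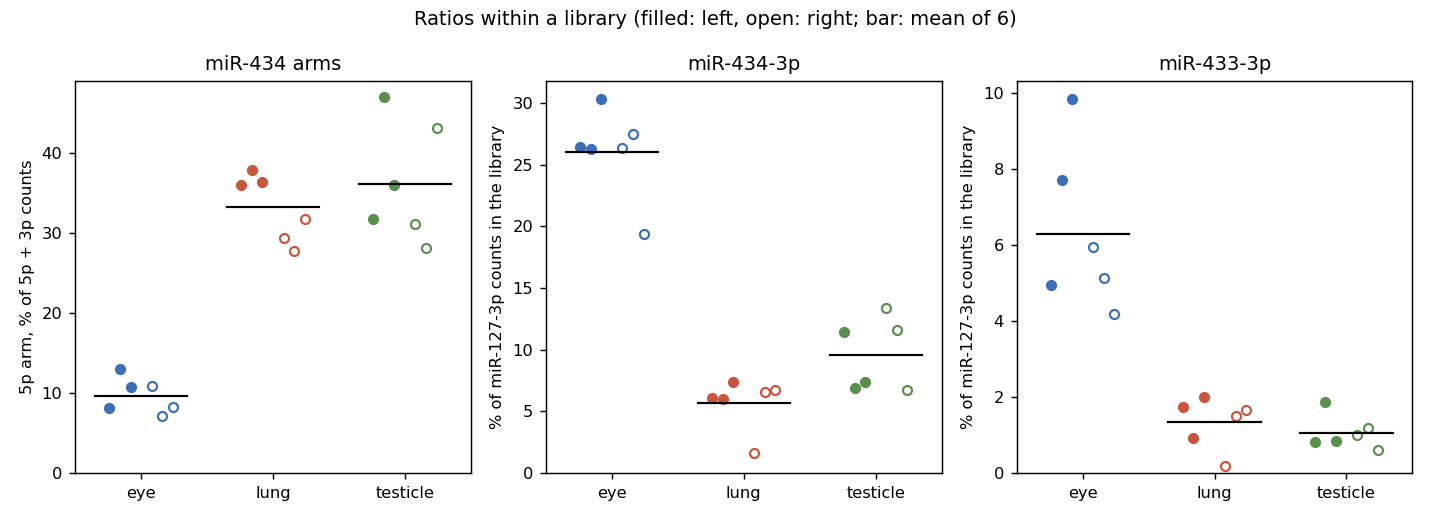
Ratios within each library: the share of the 5p arm among miR-434 counts, and the counts of miR-434-3p and of miR-433-3p as a percentage of miR-127-3p counts, with left organs filled, right organs open and a bar at the mean of 6. The eyes lie at 7.16% to 12.9% in the miR-434 panel, below all other libraries, and above all other libraries in both other panels.

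Between single lungs, miR-127-3p parted from its neighbours most in right lung 1. MiR-434-3p had 1.59% of the counts of miR-127-3p there and 6.00% to 7.38% in the other lungs. MiR-136-5p varied more, from 0.717% to 4.04% in those other lungs. Left lungs 1 to 3 had 726, 1937 and 732 CPM of miR-127-3p and right lungs 1 to 3 had 3026, 1004 and 668 CPM. Right lung 1 thus reached 36.9% of the mean eye level of miR-127-3p, but only 2.30% of that of miR-434-3p and 1.18% of that of miR-433-3p, and miR-127-3p was 96.5% of its members' counts. Left lung 2 had the highest lung level of every tested member except miR-127-3p, with 23.6% of the mean eye level of miR-127-3p, 32.5% of that of miR-434-5p and 5.54% of that of miR-434-3p. The 8 eye markers were at a median of 1.37% of their eye level in right lung 1 (range 0.197% to 6.82%) and 0.674% in left lung 2 (0.193% to 3.85%). In the other 4 lungs those medians lay at 0.185% to 0.282%. In every lung miR-127-3p, miR-431-5p and miR-434-5p were each at a larger share of their eye level than any of these markers was. The same held for miR-136-5p in all lungs but right lung 2. MiR-433-3p was below the highest marker in every lung, and miR-434-3p in every lung but left lung 2. The cause was not tested. Right lung 1 and left lung 2 were also left out together, which was not planned beforehand. EdgeR then called the 6 members that had passed within each organ higher in the eye than in the lung. Over all tested miRNAs it called 204 higher and 272 lower. Their log2 fold changes were then 4.74 for miR-434-3p, 4.60 for miR-433-3p, 2.85 for miR-136-5p, 2.79 for miR-127-3p, 2.51 for miR-434-5p and 2.25 for miR-431-5p, beside a median of -0.42 over all tested miRNAs. In the lung against the testicle miR-434-5p then had -1.66, miR-434-3p -1.50 and miR-136-5p -1.17 (adjusted p 0.0087 by edgeR), all called. There 294 of all tested miRNAs were called lower in the lung and 227 higher. Relative to miR-127-3p, the eye was then above the lung by 1.95 on the log2 scale for miR-434-3p and by 1.79 for miR-433-3p (adjusted p 0.020 each, exact permutation tests).

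**Figure D4:**
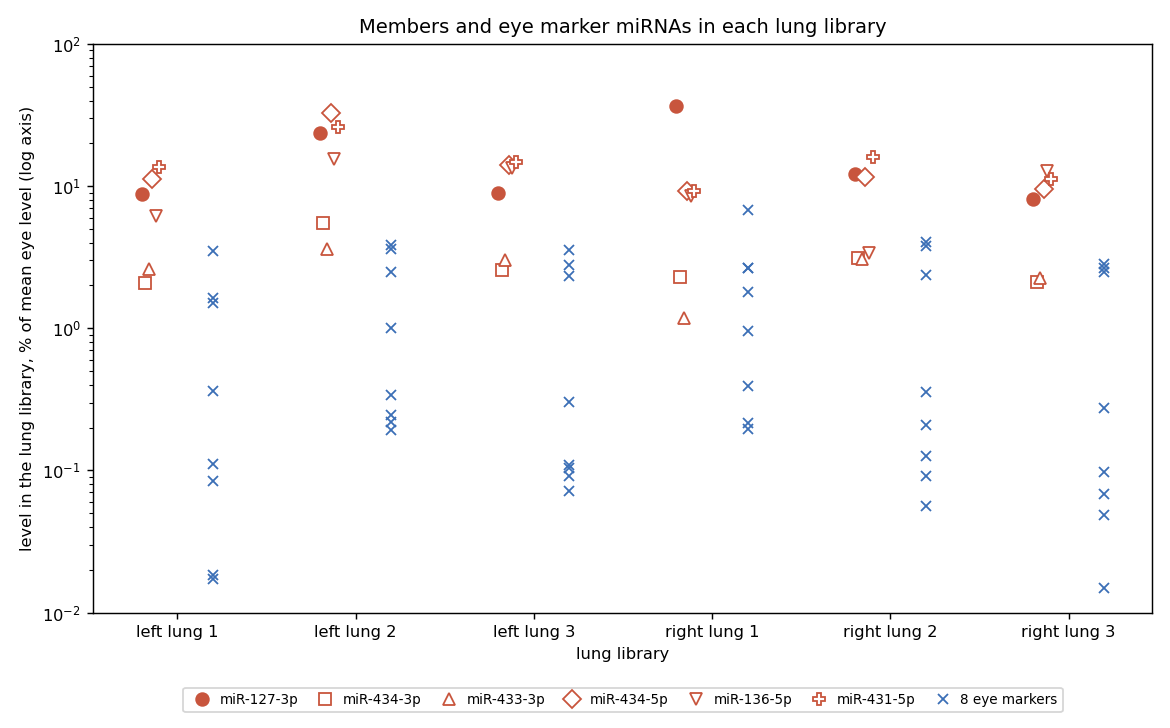
Level of 6 members and of the 8 eye marker miRNAs in each lung library, as a percentage of the mean level in the 6 eyes, on a log axis. In right lung 1 miR-127-3p lies at 36.9% and miR-433-3p at 1.18%, while the eye markers lie at 0.197% to 6.82%.

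The comparison of left with right asked whether the paired organs differ. By edgeR no member was called among 8 tested in eyes, 6 in lungs and 6 in testicles, where 0.0% of all tested miRNAs were called in each organ (487, 430 and 464 tested). In simulated counts the same test recovered 54%, 28% and 26% of 2-fold side differences in the eye, lung and testicle, so differences of that size could be missed. In that simulation many miRNAs were changed at once, by 1.5 to 8-fold, which eases the adjusted threshold. A lone 2-fold difference may be recovered less often. At an unadjusted p under 0.05 there were 0 members in each organ, and 18, 1 and 36 of all tested miRNAs in the eye, lung and testicle. DESeq2 called 1, 0 and 1 miRNAs, none of them a member. MiR-127-3p had 9084, 5706 and 6572 CPM in left eyes and 8215, 8713 and 10971 CPM in right eyes, a log2 fold change of -0.38 (SE 0.22, adjusted p 0.98 by edgeR). The sides overlapped. The largest difference of a member was that of miR-434-5p in the lung, with 24.7, 70.9 and 30.8 CPM in left lungs and 20.1, 25.2 and 20.8 CPM in right lungs, a log2 fold change of 0.83 (SE 0.46, adjusted p 0.91 by edgeR). There the highest right lung was above the lowest left lung.

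Over the members, log2 fold changes of left over right ran from -0.40 to 0.34 in eyes, -0.67 to 0.83 in lungs and -0.42 to 0.23 in testicles. The value of miR-127-3p in the lung was -0.67 (SE 0.66), and without right lung 1 it was 0.42. Whether the difference between sides varied with the organ was tested jointly by edgeR, and 0 of 642 miRNAs were called, with 21 at an unadjusted p under 0.05. The lowest p of a member in that test was 0.049, for miR-434-5p (adjusted p 1).

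The rest of the chromosome 12 cluster was set beside the members from a list of 87 further mature miRNAs, of which 59 were tested and 22 passed the filter within each organ. Of these 22, edgeR called 22 higher in the eye than in the lung, with a median log2 fold change of 3.31. Against the testicle 15 were higher in the eye and 7 were not called, with a median of 1.99. In the lung against the testicle 21 were lower and 1 was not called, with a median of -1.66. Among the most abundant of them, miR-411-5p had 2657 ± 473 CPM in eyes, 872 ± 525 CPM in lungs and 2088 ± 461 CPM in testicles. MiR-379-5p had 1384 ± 251 CPM in eyes, 369 ± 173 CPM in lungs and 1396 ± 328 CPM in testicles, so for this miRNA the eye was not above the testicle. MiR-369-5p had 924 ± 187, 44.6 ± 21.4 and 97.2 ± 30.9 CPM in these organs.

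The neighbour on the other strand gave a separate reading of the same place. MiR-3071-3p overlaps miR-136-5p by 20 bases on the opposite strand, and it had 39.6 ± 3.83 CPM in eyes, 2.73 ± 1.30 CPM in lungs and 4.72 ± 3.05 CPM in testicles. Its log2 fold change was 3.82 against the lung and 3.03 against the testicle, both called by edgeR, and that of lung against testicle was -0.79 (edgeR adjusted p 0.11). Whether the counting used strand is not given in the sources used here, so reads of miR-136-5p and miR-3071-3p may not be fully separated.

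The miRNAs whose levels were most like the summed members were named by Pearson's r of log2(CPM + 1) over the 18 libraries, which share organ, depth and scaling, so r is a description. Within the cluster these were miR-485-5p (r = 0.988), miR-369-5p (0.978), miR-382-5p (0.947), miR-410-3p (0.929) and miR-487b-3p (0.928). Outside it they were miR-9b-3p (r = 0.960), miR-211-5p (0.947), miR-598-3p (0.937), miR-124-3p (0.935) and miR-124-5p (0.929). MiR-9b-3p had 29648 ± 3170 CPM in eyes, 62.5 ± 38.2 CPM in lungs and 613 ± 53.0 CPM in testicles. The miR-9 and miR-124 families are known from neurons, and miR-211 from pigment cells.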

How the data were processed

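Small RNA libraries of 18 mouse organs were analysed, with 1 table per library. Per the labels' protocols, a spin-column kit was used for the RNA and the BGI-500 protocol for the libraries. GRCm38.p6 is the genome build in the submitters' processing notes. The sources used here do not give the aligner, the counting program or the handling of multi-mapping reads. Per the file headers and the values, the deposited numbers are raw counts of each mature miRNA, whole and without any normalization. They were tested in edgeR 4.0.16 (R 4.3.3) by the quasi-likelihood method, after TMM scaling and filterByExpr with the 6 groups, and p-values were adjusted by Benjamini-Hochberg at 0.05 over all tested miRNAs. Of 1431 miRNAs, 642 passed the filter over 18 libraries. Organs were compared as the mean of both sides in 1 fit of 6 groups, with the SE as the log2 fold change over the square root of F. Sides were compared on the 6 libraries of an organ. Arm ratios are log2 of 5p over 3p counts with 0.5 added to each. They and the ratios to miR-127-3p were tested by two-sided exact permutation (SciPy 1.17.1). The named miRNAs are the members, the unlisted partner arms, the 5 most alike within and outside the cluster, and the 3 most abundant of the rest of the cluster, while miR-3071-3p was added after its values had been seen. Members and lists were chosen with earlier results of these data known. Alternatives were other scalings, filters, DESeq2 1.42.0, other pseudocounts, a replicate block and leaving out libraries. The procedure was tested on simulated counts. Mature sequences and positions are from RefSeq, and the Rtl1 sites from GENCODE M21, both of GRCm38.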

Additional observations from a re-analysis of the deposited data

Results flagged for a closer look

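In the 36 sets of 6 libraries examined (each member's level in each organ with enough counts, and the arm ratios), 4 had 1 library far from the others; chance alone gives about 1 in 20. MiR-433-3p had 647 CPM in left eye 3, against 439.85 to 489 CPM in the other 5 eyes. MiR-434-3p had 116 CPM in left lung 2, against 43.9 to 65.5 CPM in the other lungs. MiR-434-5p had 70.9 CPM in left lung 2, against 20.1 to 30.8 CPM in the other lungs. The log2 ratio of 5p to 3p of miR-127 was -13.94 in right lung 1, against -12.45 to -11.97 in the other lungs, with 0 counts of the 5p arm and the highest count of the 3p arm among the lungs.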

How the results depend on the processing

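Of 1493 single values recomputed, 1433 kept their direction where called and their side of the threshold, 37 lost a call, 20 gained one and 3 turned. The 3 that turned were uncalled arm ratios with a pseudocount of 5: miR-127 (-1.90) and miR-431 (1.26) for eye against lung, and miR-431 (1.98) for eye against testicle. Their minor arms had at most 1 count in a lung or testicle library, so by arithmetic the 5 added counts outweigh them there. That pseudocount gave 3 called hairpins in each of these comparisons, against 1, and leaving out 1 library gave 1 to 2 for eye against lung. The members called between lung and testicle, with miR-136-3p and miR-540-3p counted in, were 5, but 3 with library totals alone or with left lung 1 or left testicle 1 as TMM reference, 3 without right eye 2 (median of all tested miRNAs -0.29) or left testicle 2, and 8 without left lung 2; leaving out 1 library gave 3 to 8. Without right eye 2, miR-127-3p had 1.93 for eye against lung, beside a median of -0.54 over all tested miRNAs. Between sides, where 0 were called, leaving out 1 library gave 0 to 1 in the eye and testicle, DESeq2 gave 1 in each of these, and no filter gave 6 in the eye and 1 in the lung. Whether same-numbered left and right libraries deviated together differed by organ, with r over 0.1 in 4 of 9 pairs. In eyes r was -0.42 to -0.11, in lungs -0.02 to 0.40 and in testicles 0.02 to 0.24. Differently numbered pairs had -0.29 to 0.07 in lungs and -0.20 to 0.08 in testicles. Not every library was closest to its own number, and whether such pairs came from 1 mouse was not tested. With the replicate block edgeR called 383, 509 and 490 miRNAs in the organ comparisons, against 384, 509 and 491, and 8, 8 and 4 members. With same-numbered libraries averaged, the arm ratios and the ratios to miR-127-3p gave 0 calls in every comparison, since 3 against 3 cannot pass. Depth limits miR-127-5p and miR-431-3p in lung and testicle, where they had at most 1 count in a library.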
